A study of Acrobeloides nanus with 194 samples.

Results

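EMS and AB are cells of the 3-cell embryo, and their transcripts were compared in hand-separated blastomeres of the nematode Acrobeloides nanus. The members are the libraries titled EMS (5) and AB (7) at the 3-cell stage with a total of 10000 counts or more, which kept 4 EMS and 7 AB libraries, 11 of 194 in the series. No strain, age, allele or treatment is named for either group, and per the labels all embryos were freed of their egg shells and taken apart by hand. Each cell became 1 library with CEL-Seq2, which barcodes the 3' ends of transcripts before samples are pooled. No label says that libraries of a group came from separate embryos, so p-values measure the spread between these libraries. The 5 libraries of P2, the other cell of this stage, shared the fit and added to its estimate of spread.

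The zygote P0 yields AB and P1 at its first division, and EMS and P2 are the daughters of P1. In nematode embryos AB gives mainly skin, neurons and part of the pharynx, whereas in Caenorhabditis elegans EMS gives MS, a source of mesoderm, and E, the founder of the gut. Acrobeloides nanus reproduces by parthenogenesis, and cells of its early embryo are known to change fate when a neighbour is removed. The deposited table of counts has neither gene names nor other identifiers for its rows. The files do not pair rows with genes, so a row is named by its position in the table, no marker of AB or EMS could be looked up, and no sequence is shown. The cell identities are those of the titles.

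EMS libraries held 29131, 98861, 133775 and 201221 counts, and AB libraries ran from 25213 to 307179 with a median of 135975. A single count was worth 4.97 CPM (the share of the library's total, scaled to 1e+06 counts) in the deepest EMS library and 34.3 CPM in the shallowest. In each of the 5 replicate numbers that both cells share, the EMS library had fewer counts than the AB library, at 0.238 to 0.984 of its total. Over the libraries kept, the mean log2 total was 0.39 lower in EMS, less than the spread between libraries (-0.39, exact two-sided permutation p = 0.618, adjusted p = 0.936 over 4 such measures, n = 4 and 7). That test did not pair the numbers, and EMS replicate 4 (9296 counts) was left out of it for its low total. With a minimum total of 5000 the difference was -1.05 (exact permutation p = 0.256, not adjusted). CPM values are shares of a library, so a larger share and more molecules per cell cannot be told apart.

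At equal depth the numbers of rows detected in EMS and AB overlapped. With every library thinned to 10000 counts, 5065 ± 540.4 rows were detected in EMS and 4576 ± 806 in AB (SD, n = 4 and 7). The gap, 489 rows, was within the spread between libraries (exact permutation p = 0.3, adjusted p = 0.936). Unthinned, the numbers were 13210.5 ± 3238 and 13058 ± 3414 rows (exact permutation p = 0.936, adjusted p = 0.936). The 100 most abundant rows of a library took 23.4% ± 9.45 of its counts in EMS and 25.7% ± 11.9 in AB (SD, n = 4 and 7, exact permutation p = 0.815, adjusted p = 0.936).

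Likeness within a cell overlapped likeness between cells. Over the 3097 rows tested, the median Spearman rho between pairs of libraries was 0.41 within EMS (6 pairs), 0.28 within AB (21 pairs) and 0.36 between EMS and AB (28 pairs). A score, the position of a library on the main axis of variation among all libraries of 10000 counts or more, split both cells. EMS replicates 6 and 8 and AB replicates 2, 4 and 8 scored below 0 (-6.41 to -20.8) and are called low-score libraries, while EMS replicates 1 and 7 and AB replicates 1, 3, 6 and 7 scored 11.4 to 29.2. The score included depth (Pearson r 0.544 with the log2 total over the libraries), and no label names a batch that it follows. Both cells thus had libraries of both kinds, and values are given within each where a result rests on them.

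Among the 3097 rows tested, 2 were higher in EMS and none was lower (edgeR quasi-likelihood test, Benjamini-Hochberg adjusted p under 0.05), which is 0.0646% of the rows. Row 560 and row 377 passed, and the next row toward EMS had an adjusted p = 0.184 in edgeR. At an unadjusted p under 0.05 stood 5.84% of rows, of which 93 (3%) leaned to EMS and 88 (2.84%) to AB. DESeq2 called 5 rows, 4 higher and 1 lower in EMS, and both edgeR calls were among them. The median log2 fold change of all rows was -0.15, and -0.31 with median-of-ratios scaling, a shift of -0.16 that comes from the scaling alone.

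**Figure D1:**
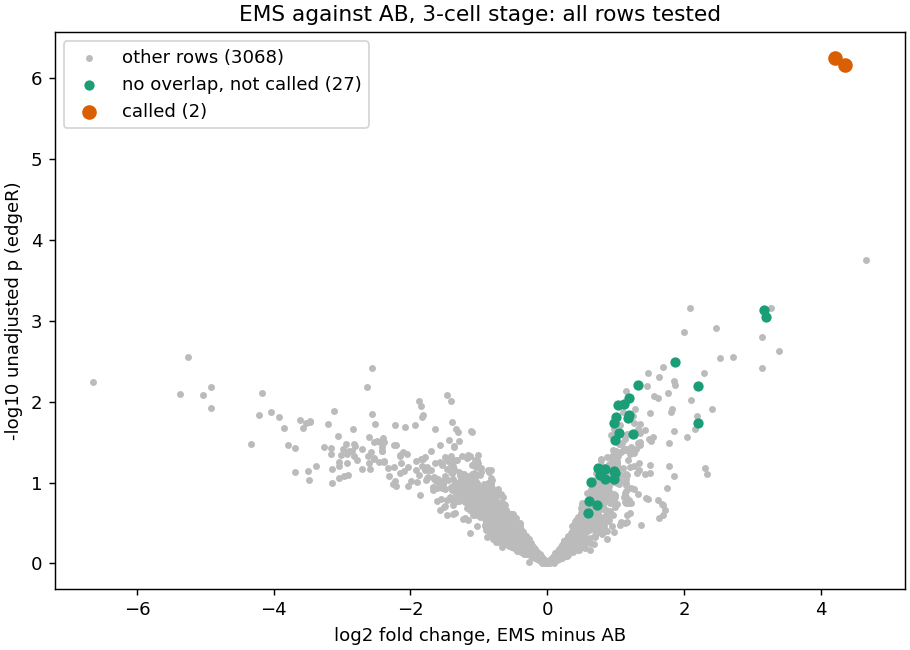
Each point is 1 of the 3097 rows tested, with its log2 fold change (EMS minus AB, horizontal) and the -log10 of its unadjusted p from edgeR (vertical). The 2 called rows (large points) stand above all others, and the rows whose 4 EMS libraries all lie above the 7 AB libraries are coloured whether called or not.

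Row 560 was abundant in EMS and nearly missing in AB. It had 84, 71, 10 and 10 counts in EMS replicates 1, 6, 7 and 8, or 417, 531, 101.2 and 343 CPM. AB replicates 1, 2, 3, 4, 6, 7 and 8 had 3, 0, 5, 0, 4, 7 and 1 counts, at 0 to 33.4 CPM with a median of 9.77. Every EMS library lay above every AB library. The closest were EMS replicate 7, with an exact 95% binomial interval of 48.5 to 186.01 CPM, and AB replicate 7, with 13.4 to 68.8 CPM, so these intervals overlap. Intervals and floors cover counting error only. Means were 348 ± 181.8 CPM in EMS and 14.7 ± 13.6 CPM in AB (SD, n = 4 and 7), and EMS was higher by 4.21 ± 0.61 on the log2 scale (SE, 95% interval 2.94 to 5.47, edgeR adjusted p = 0.00108).

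Row 377 had the same order at a lower level. Its counts in EMS replicates 1, 6, 7 and 8 were 41, 46, 4 and 4, or 203.8, 344, 40.5 and 137.3 CPM. AB had 3, 0, 2, 0, 0, 2 and 2 counts in replicates 1, 2, 3, 4, 6, 7 and 8, at 0 to 16.4 CPM. The groups did not overlap, although EMS replicate 7 was again the lowest of its cell, with an interval of 11.02 to 103.6 CPM that reaches below the highest AB value. Means were 181.3 ± 127.4 and 6.35 ± 6.44 CPM (SD, n = 4 and 7), and EMS was higher by 4.35 ± 0.64 on the log2 scale (SE, 95% interval 3.03 to 5.68, edgeR adjusted p = 0.00108).

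The levels of both rows are given here by score, although the order of the cells within each class follows from the lack of overlap over all libraries. Row 560 stood at 343 to 531 CPM in the 2 low-score EMS libraries against 0 to 8.18 CPM in the 3 low-score AB libraries, and at 101.2 to 417 against 9.77 to 33.4 CPM in the others. Row 377 stood at 137.3 to 344 against 0 to 16.4 CPM in low-score libraries, and at 40.5 to 203.8 against 0 to 9.77 CPM in the others. Without low-score libraries, with 2 EMS and 4 AB libraries left, the log2 fold changes were 3.56 and 3.97 and both rows just missed the threshold (edgeR adjusted p = 0.0536 for each over 4981 rows). On the 3097 rows tested before they passed (adjusted p = 0.0462 for each). Without EMS replicate 6 the log2 fold change of row 377 was 3.80 and it missed the threshold as well (edgeR adjusted p = 0.0675), while on the 3097 rows it was 3.78 and passed (adjusted p = 0.0428).

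The EMS library left out for its depth, replicate 4 with 9296 counts, bears on row 560 but not on row 377. It held 4 counts of row 560, or 430.3 CPM (exact 95% binomial interval 117.3 to 1101 CPM), above the 33.4 CPM that was the highest value in AB. It held no count of row 377, which allows up to 323 CPM, a limit above 3 of the 4 EMS values. AB replicate 4, the shallowest AB library, had neither row, at a limit that the same rule puts at 118.99 CPM.

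**Figure D2:**
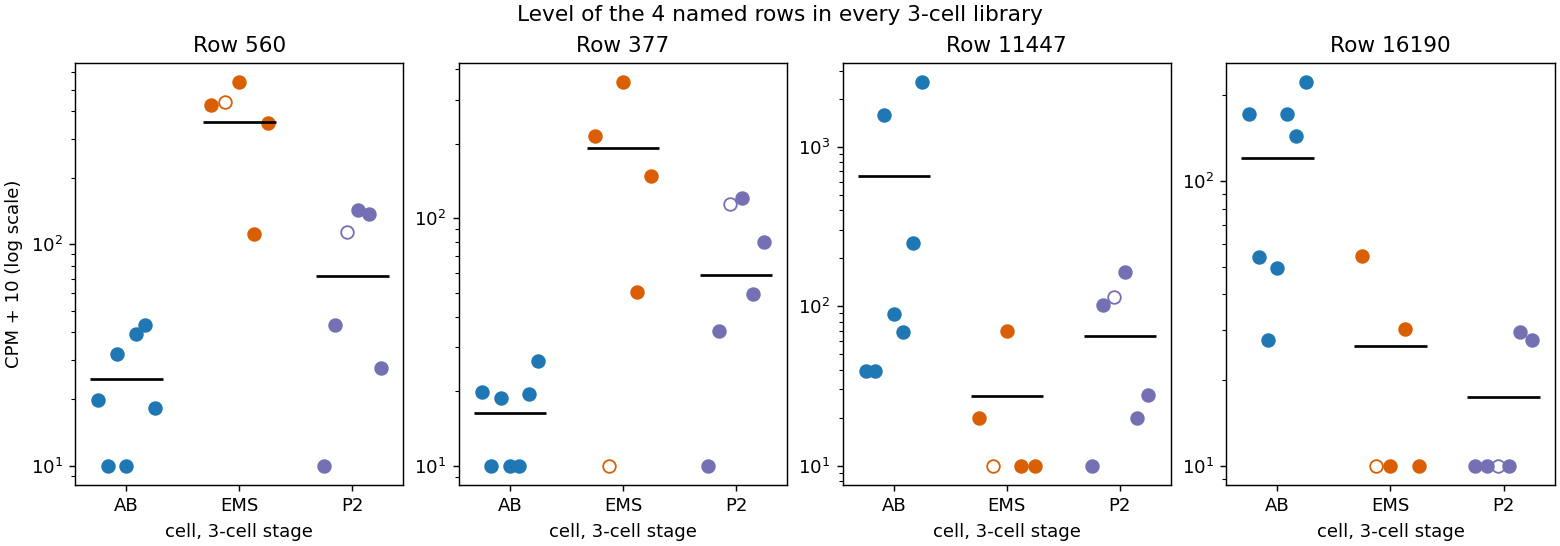
CPM + 10 on a log scale in each 3-cell library of AB, EMS and P2 for the 4 named rows; filled points are libraries of 10000 counts or more, open points are shallower ones, and bars are means of the filled points. Rows 560 and 377 are higher in all 4 EMS libraries than in any AB library, while rows 11447 and 16190 overlap.

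P2, the sister of EMS, overlapped both AB and EMS for both rows. Row 560 stood at 0, 17.5, 33.2, 127.1 and 132.5 CPM in P2, and row 377 at 0, 24.9, 39.1, 70.2 and 110.4 CPM. The value of 0 is that of P2 replicate 1 for both rows, whose depth allows up to 126.3 CPM. The P2 values above the highest AB value numbered 2 of 5 for row 560 and 4 of 5 for row 377, and the lowest EMS value of each row fell inside the P2 range. In the same fit EMS minus P2 was 2.37 ± 0.64 for row 560 and 1.93 ± 0.64 for row 377 (log2, SE; edgeR adjusted p = 0.259 and 0.286), and P2 minus AB was 1.84 ± 0.66 and 2.42 ± 0.74 (adjusted p = 0.161 and 0.124). No row passed between EMS and P2 (edgeR, 0% of 3097 rows tested, 389 rows or 12.6% at an unadjusted p under 0.05). These contrasts share libraries with EMS minus AB.

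Toward AB no row passed edgeR, and the leading rows overlapped between the cells. Row 11447 had the smallest p on that side, and its counts in AB replicates 1, 2, 3, 4, 6, 7 and 8 were 9, 2, 360, 2, 8, 50 and 309. In CPM, AB replicates 3 and 8 stood at 1578 and 2526 and the other AB libraries at 29.3 to 239. EMS replicates 1, 6, 7 and 8 stood at 9.94, 59.8, 0 and 0 CPM, so the cells overlap and the AB mean of 648 ± 999.6 CPM (SD, n = 7) is carried by 2 libraries. EMS minus AB was -5.25 ± 1.57 (log2, SE; edgeR adjusted p = 0.636), and DESeq2 called the row (adjusted p = 0.0219).

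Row 16190, the second on that side, was spread more evenly over AB. It stood at 162.8, 44.1, 17.5, 39.7, 161.8, 133.6 and 212.6 CPM in AB replicates 1, 2, 3, 4, 6, 7 and 8. EMS replicates 1 and 7 stood at 44.7 and 20.2 CPM, and replicates 6 and 8 had no count, which allows up to 22.4 and 102.98 CPM. The 4 EMS values lay below all but 3 of the AB values. EMS minus AB was -2.56 ± 0.79 (log2, SE; edgeR adjusted p = 0.667), with means of 16.2 ± 21.3 CPM in EMS and 110.3 ± 75.7 CPM in AB (SD, n = 4 and 7).

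Rows that separate the cells without overlap were found on the EMS side alone. Every EMS library lay above every AB library in 29 rows (0.936% of those tested), and every EMS library lay below every AB library in no row (0%). The 2 directions are not equally easy to reach. A count of 0 in any of the 7 AB libraries is enough to prevent the second. The filter on low counts asks for a level in 4 libraries, the size of the smallest group, so the EMS libraries alone could carry a row past it. The part of these limits in the 29 against 0 was not tested. Only rows 560 and 377 of the 29 were called. Rows carried by a single library were common: in 4.75% of those tested, 1 of the 11 libraries held over 50% of the summed CPM. AB replicates 8, 2 and 4, the low-score AB libraries, were that library in 49, 37 and 18 rows, and each EMS library in 3 to 10. Among the rows at an unadjusted p under 0.05 the share was 37.6% (68 rows).

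The precision limits what the other rows can show. The median standard error of a log2 fold change was 0.58, and 0.45 to 0.89 between the 10th and 90th percentiles. The 95% interval lay wholly within a 4-fold difference in either direction for 2127 of 3097 rows (68.7%), within 8-fold for 2858 rows (92.3%) and within 2-fold for 84. Among the most abundant rows (the upper 1032 by mean CPM) the median standard error was 0.73 and 45.6% of intervals lay within 4-fold. Among the least abundant 1033 these were 0.56 and 81.2%. The ranking used the mean of the same libraries, so a row raised by a single library also moved up in it. That part of the difference was not tested. Most rows are thus bounded at 4-fold, row by row, and few at 2-fold.

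Rows 560 and 377 were next followed in libraries that took no part in the comparison. At the 4- to 6-cell stages, where 4 EMS and 5 AB libraries take no part in the 3-cell comparison, row 560 stood at 150.3 CPM in 4-cell EMS, at 284.7 and 31.9 CPM in 5-cell EMS replicates 1 and 2 and at 794 CPM in 6-cell EMS. In AB it stood at 9.95, 39.1 and 0 CPM in the 3 libraries of the 4-cell stage and at 0 CPM in those of the 5- and 6-cell stages. Of the 4 EMS libraries 3 lay above every AB library, and 5-cell EMS replicate 2, with 1 count, did not. Means were 315 ± 335 CPM in EMS and 9.82 ± 16.9 CPM in AB (SD, n = 4 and 5; difference of mean log2(CPM + 50) 2.16, exact two-sided permutation p = 0.0159, where 0.00794 is the smallest this design allows, adjusted p = 0.127 over 8 tests of the named rows).

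Row 377 stood at 55.4, 244.1, 31.9 and 420.2 CPM in the same EMS libraries. In AB it was detected only in the 6-cell library, at 57.7 CPM. The higher 2 of the 4 EMS values lay above all AB values (difference of mean log2(CPM + 50) 1.67, exact permutation p = 0.0317, adjusted p = 0.127, n = 4 and 5). The usual filter on low counts removed all 4 named rows from the edgeR test of these stages. Without a filter, edgeR called 196 of 16526 rows, rows 560 and 377 among them. EMS minus AB was 5.08 ± 0.97 for row 560 and 3.44 ± 0.87 for row 377 (log2, SE; edgeR adjusted p = 0.000171 and 0.0123). For row 377 that call was lost with stage as a covariate (adjusted p = 0.105) and without 4-cell AB replicate 4 (0.14), 5-cell AB replicate 2 (0.169) or 6-cell EMS (0.215).

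The score moves with the cell at these later stages. All 4 EMS libraries were low-score (-11.5 to -14.6). Of the AB libraries 1 was, 4-cell AB replicate 3 (-14.8), which had no count of either row and allows up to 154.8 CPM of each. Over the 134 libraries used outside 3-cell EMS and AB, row 560 had a median of 143.8 CPM in the 69 low-score libraries and 46.4 CPM in the other 65 (Spearman rho with the score -0.389), and row 377 had 95.9 and 37.0 CPM. The score includes depth, though over these libraries the Spearman rho with the log2 total was -0.051 for row 560 and -0.043 for row 377. The part of the score in the later difference was not tested.

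At the 2-cell stage neither row separated the cells. At the 2-cell stage row 560 had a lowest, median and highest value of 4.04, 185.9 and 787 CPM in AB (n = 7), and 7.17, 53.6 and 403.5 CPM in P1, the mother of EMS (n = 7). The groups overlapped almost fully. P1 minus AB was -0.90 ± 0.89 (log2, SE, edgeR adjusted p = 0.879), and no row passed there (0% of 1536 rows, 6.12% at an unadjusted p under 0.05; run with edgeR alone). Row 377 ran from 4.04 to 652 CPM in AB with a median of 147.1, and from 0 to 443.9 CPM in P1 with a median of 27.5. All 7 AB libraries of the 3-cell stage held less of row 560 than 6 of the 7 AB libraries of the 2-cell stage did, and the same count held for row 377. Among those 6, replicate 1 rests on 1 count of each row, and replicate 5 on 2 counts of row 560 and 1 of row 377. The order of the stages has no test here, since the low values of 3-cell AB chose the rows. P0, the zygote, had 110.5, 9.04 and 76.4 CPM of row 560 and 184.2, 3.29 and 41.4 CPM of row 377.

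Outside 3-cell EMS and AB both rows were widely detected. Row 560 exceeded its highest 3-cell AB value in 74.6% of the 134 other libraries and row 377 did so in 71.6%. These 134 include the 4 EMS libraries of the 4- to 6-cell stages. In a shallow library 1 count is enough to exceed that value, as in 2-cell AB replicate 1 (54.2 CPM of each row). In P3 of the 4-cell stage row 560 averaged 75.05 ± 30.6 CPM (SD, n = 4), and in C of the 4- and 5-cell stages 174.9 ± 226 CPM (SD, n = 4). Among 13- and 16-cell embryos it stood at 365.6, 72.4 and 0 CPM in 3 libraries titled MS (4, 7 and 0 counts). It stood at 109.4 CPM in 1 titled E (2 counts), and at 27.9 to 121.7 CPM in 5 titled AB. The libraries at 365.6 and 109.4 CPM were low-score, and their values rest on few counts. MS and E are the daughters of EMS, and their values overlapped those of AB.

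**Figure D3:**
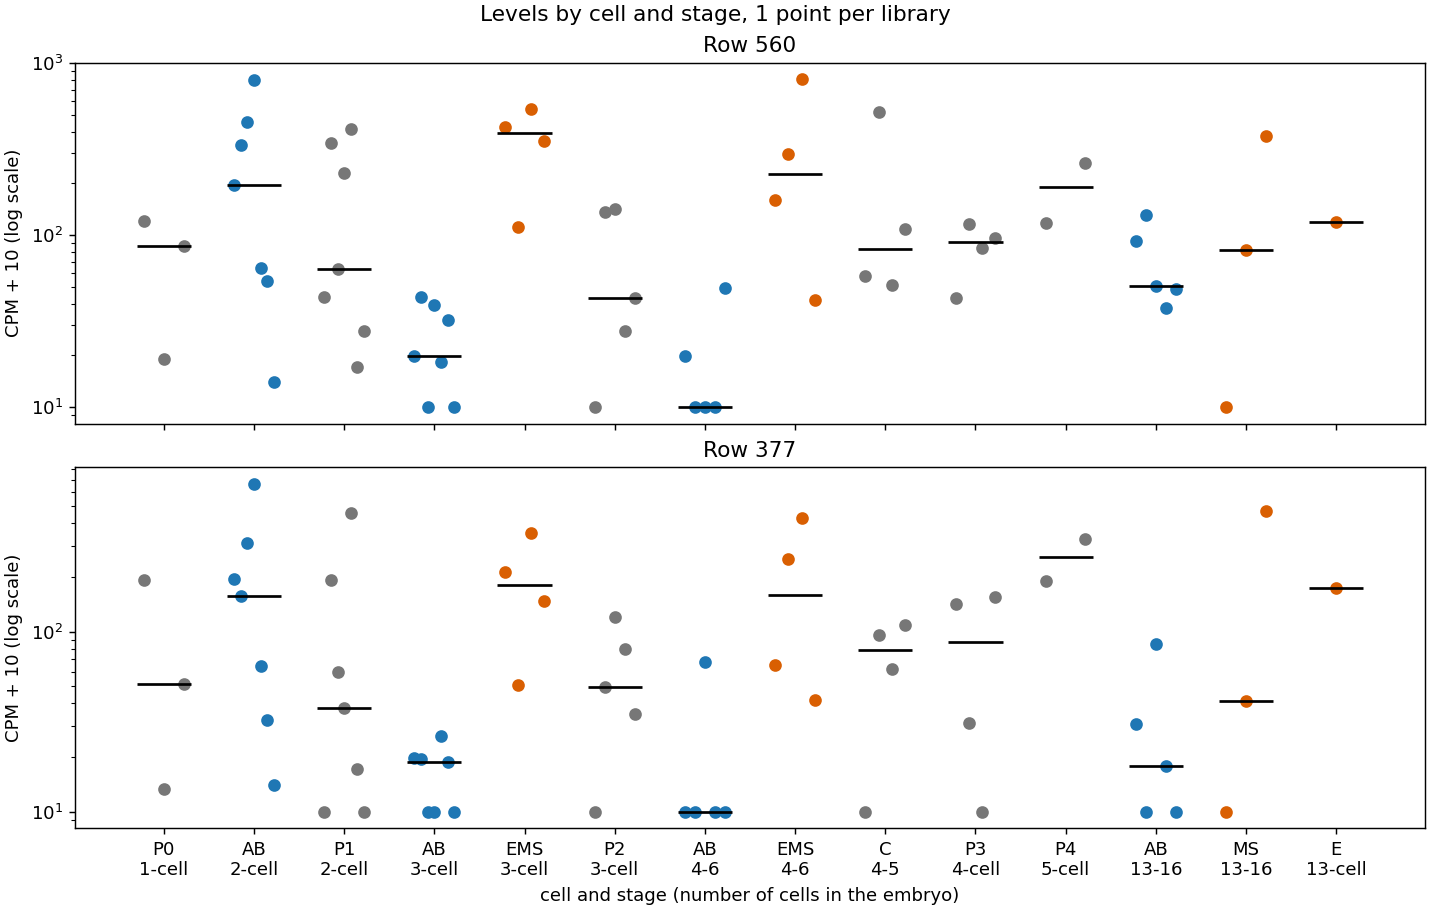
CPM + 10 on a log scale for row 560 (top) and row 377 (bottom), 1 point per library of 10000 counts or more, by cell and stage, with AB in blue, EMS and its daughters MS and E in orange, other cells in grey and the median as a bar. AB medians fall near the bottom at the 3-cell stage and at 4 to 6 cells, while at 2 cells AB and P1 spread over the full range.

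The 2 rows followed each other closely. Over the 134 libraries used outside 3-cell EMS and AB, row 377 had the highest Spearman rho with row 560 of 6652 rows with 500 or more counts (0.826, Pearson r 0.848, on log2(CPM + 50); the next row had 0.789 and the median row 0.04). The libraries share depth, stage and score, which these values include. Both were detected in 75.4% of them, row 560 alone in 17, row 377 alone in 3 and neither in 13. Where both were found the median ratio of row 560 to row 377 was 1.62, and it was 1.54 to 2.5 in the 4 EMS libraries. Without identifiers, reads from 2 contigs of 1 gene or from near-identical copies cannot be told apart from 2 genes.

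**Figure D4:**
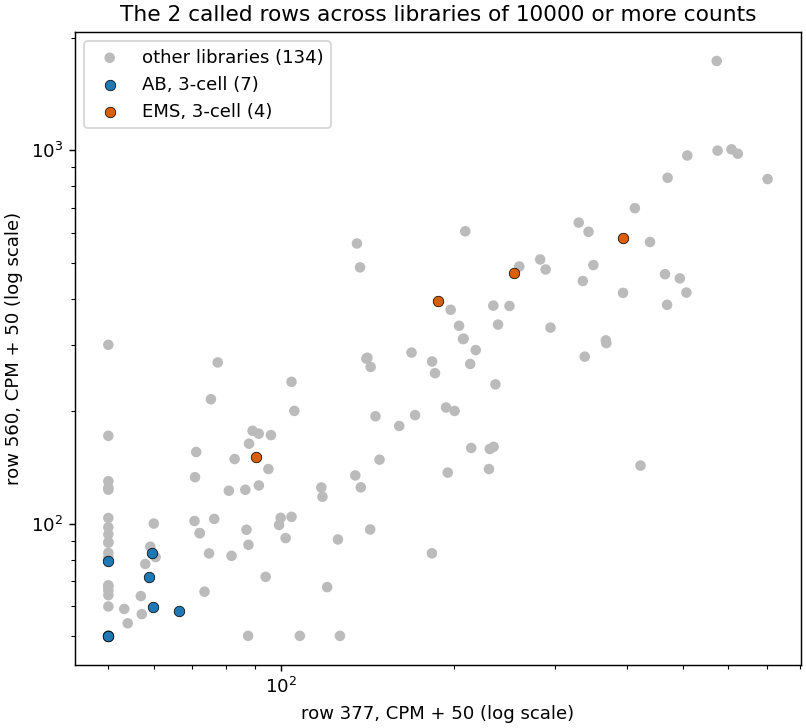
Row 560 (vertical) against row 377 (horizontal), both as CPM + 50 on log scales, in every library of 10000 counts or more. The 4 EMS libraries of the 3-cell stage lie along the same trend as the 134 other libraries, and the 7 AB libraries lie at its lower end.

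Row 16190 was also read elsewhere. At the 4- to 6-cell stages it averaged 191.5 ± 233 CPM in AB and 39.6 ± 42.2 CPM in EMS (SD, n = 5 and 4; exact permutation p = 0.302, adjusted p = 0.603). The spread in AB was from 0 to 542 CPM and covered all EMS values. Without a filter, edgeR gave EMS minus AB of -2.57 ± 0.86 there (log2, SE; adjusted p = 0.12), and -2.78 without 4-cell AB replicate 3, where it passed (adjusted p = 0.029). At the 2-cell stage it was low in AB and in P1, at 18.6 ± 21.5 and 13.7 ± 7.94 CPM (SD, n = 7 each; exact permutation p = 0.737, adjusted p = 0.737). Row 11447 averaged 19.1 ± 25.1 CPM in AB and 23.6 ± 20.2 CPM in EMS at 4 to 6 cells (exact permutation p = 0.706, adjusted p = 0.737, n = 5 and 4), all far below the 2526 CPM of 3-cell AB replicate 8. Among the 3 P0 libraries it stood at 15.9, 37.8 and 4051 CPM.

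Wider sets of leaning rows were described in the same way, with no test, since the 3-cell libraries chose them. The 50 rows with the smallest p toward EMS had log2 fold changes of 0.97 to 4.66, and 2 were called. The 50 toward AB had -6.64 to -1.10, and none was called by edgeR. The EMS list took 1.72% to 2.90% of counts in 3-cell EMS and 0.329% to 0.489% in 3-cell AB. In P2 it took 0.473% to 1.48%, with a median of 0.658%. These 3-cell values of EMS and AB are fixed by the choice of rows.

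At the 4- to 6-cell stages the EMS list took 1.00%, 1.10%, 1.20% and 1.88% of counts in EMS. In AB it took 0.431%, 0.447%, 0.656%, 0.701% and 1.25%, the last in the low-score 4-cell AB replicate 3. That library lay above 3 of the 4 EMS libraries, and the other 4 AB libraries lay below all of them. The AB list took 0.305% to 0.426% in EMS, and 0.217% to 6.81% in AB with a median of 2.67%. The lowest AB value was again 4-cell AB replicate 3, below every EMS library, while the other 4 lay above them.

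Row by row, without a filter on low counts, 33 of the 50 EMS-list rows had a positive EMS minus AB difference at 4 to 6 cells (median log2 fold change 0.42), against 43.9% of all 16526 rows (median -0.19). Of the 50 AB-list rows 6 had a positive one (median -1.37). Rows of both lists had passed the filter on low counts at the 3-cell stage, while the 16526 rows include all with any count. The lists and all rows are thus not of like abundance. Passing the usual filter were 8 rows of the EMS list, 6 of them positive, and 5 rows of the AB list, none of them positive. That filter kept 402 rows in all, of which 58.2% were positive (median 0.25), and 87 of them (21.6%) were called there, 23 higher (5.72%) and 64 lower (15.9%) in EMS. The count of 87 does not hold: leaving out any 1 of the 9 libraries moved it by over 1.5 times, to between 0 and 179, with 0 without 4-cell EMS replicate 5 or 5-cell EMS replicate 2 and 179 without 4-cell AB replicate 3. With stage as a covariate it was 24.

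Fold changes were also set side by side between stages. Across 399 rows tested at both times, which are not independent replicates, those of EMS minus AB at the 3-cell and at the 4- to 6-cell stages had a Pearson r of 0.437 (Spearman rho 0.443), with the same sign in 63.2%. Against P1 minus AB at the 2-cell stage the relation was the opposite, with a Pearson r of -0.244 (Spearman rho -0.295) and the same sign in 37.2% of 1499 rows. No library is shared, but the mean score differed between the cells. EMS had a lower mean score than AB at the 3-cell stage, 2.78 against 7.48, where the scores of the cells overlap. Later it was lower as well, at -12.7 against 8.87. At the 2-cell stage the gap was reversed, with 8.77 in P1 and -0.52 in AB, and the scores overlap there too. The part of the score in these relations was not tested. A test of the change in EMS minus AB between the times called none of 3210 rows (edgeR, smallest adjusted p = 0.747, 5.89% at an unadjusted p under 0.05; run by no other tool). For row 560 that difference of differences was 1.48 (log2, adjusted p = 0.877) and for row 377 -0.34 (adjusted p = 0.992).

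At the 2-cell stage the EMS list took 0.587% to 2.57% of counts in AB with a median of 1.44%, and 0.474% to 1.495% in P1 with a median of 0.951%. Of its 31 rows tested there, 6 had a positive P1 minus AB difference (median log2 fold change -0.52), against 54.9% of all 1536 rows (median 0.06). AB had 4 low-score libraries of 7 at that stage and P1 had 2 of 7. The AB list took 0.308% to 0.867% in AB and 0.325% to 0.959% in P1, with medians of 0.400% and 0.398%. Of its 13 rows tested, 7 had a positive P1 minus AB difference.

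**Figure D5:**
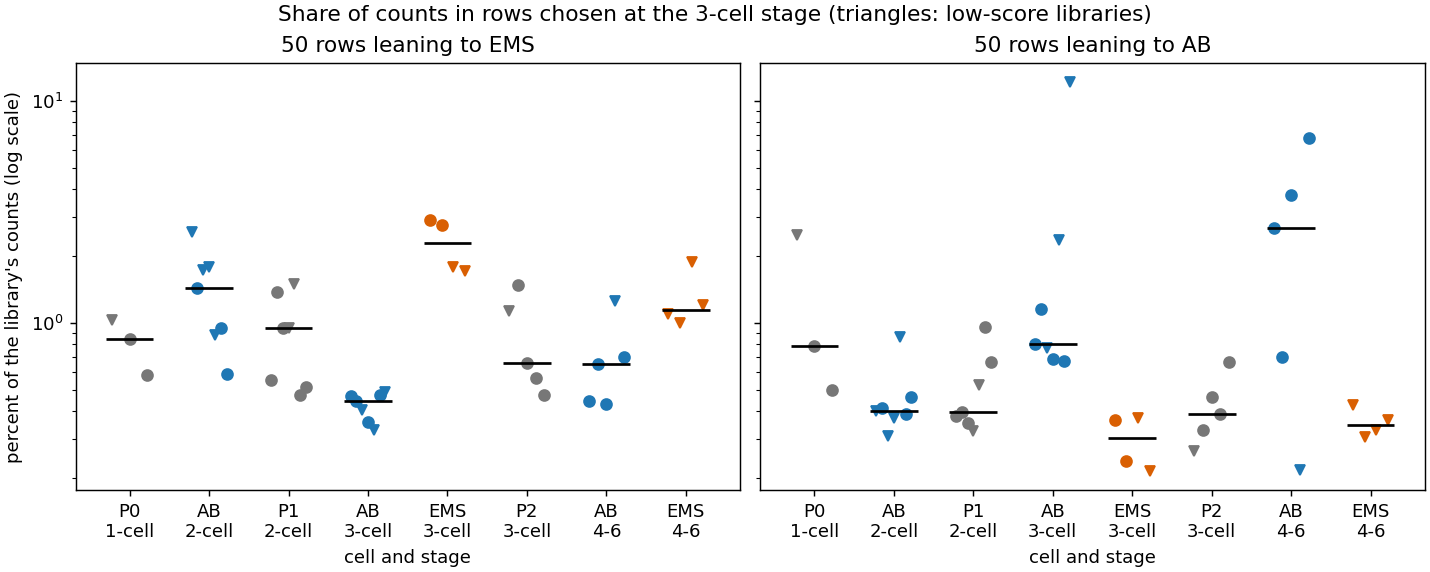
Percent of each library's counts, on a log scale, in the 50 rows leaning to EMS (left) and the 50 leaning to AB (right), by cell and stage, with triangles for low-score libraries and bars for medians. The 3-cell EMS and AB points chose the rows; at 4 to 6 cells the AB list holds 0.217% to 6.81% in AB and at most 0.426% in EMS.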

How the data were processed

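The authors deposited raw counts, 1 column per library, and CASAVA 1.8, Bowtie2 2.1.0 and HTSeq 0.5.4p3 are named in the submitters' processing notes. Settings, and whether molecular identifiers were collapsed, are not given there. No value exceeds 1024, which occurs 22 times, and what sets that maximum is not stated. A column was given to the sample whose description ends in its number. Of the columns, 34 were not used: 9 whose number also reads as another sample's title, and the rest from libraries in no group with under 10000 counts. Groups come from titles. No label says whether equal replicate numbers mark 1 embryo, so numbers were not used as pairs in the main test. Same-numbered EMS and AB libraries deviated together in 3 of 4 numbers (r 0.415, 0.416 and 0.162 for numbers 1, 7 and 8, and -0.316 for number 6). Numbers 1 and 7 are low-score in neither cell, number 8 is in both and number 6 in EMS only. A shared embryo and the score thus cannot be told apart here. The number as a block was run as an alternative. No 2 replicates agreed within counting noise (chi-square per degree of freedom of 3.25 or more).

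Rows were tested with edgeR 4.0.16 in R 4.3.3 with limma 3.58.1 (TMM, filterByExpr with a minimum count of 10 and a minimum total of 15, robust quasi-likelihood), on AB, EMS and P2 in 1 fit, with Benjamini-Hochberg adjustment over all rows tested. Standard errors are those that give the test's F. Single values were tested by exact permutation. The score is the first principal component over 874 rows summing to 2000 counts or more (log2(CPM + 50)). Alternatives included DESeq2 1.42.0. Rows named are the 2 in each direction with the smallest p among those detected in over 50% of the higher group. The members, lists and tests were chosen with earlier results of these data known; the permutation tests of named rows at other stages, the unfiltered reading of the later stages and the comparison of both times were added after seeing the data. The test script was checked on simulated data. Limits for a count of 0 are 3 counts of the total. The deposited list of contigs was not used.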

Additional observations from a re-analysis of the deposited data

Results flagged for a closer look

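Of 38 sets of values looked at, 4 had a sample far from the rest of its group. The rule, on the gap to the next value, flags about 1 in 20 sets if values are normally distributed. CPM values and shares are skewed, so that rate cannot be applied here. Row 11447 stood at 59.8 CPM in 3-cell EMS replicate 6 and at 9.94 CPM or less in the other 3 EMS libraries. The 50 rows leaning to AB took 12.1% of counts in 3-cell AB replicate 2, the next AB library having 2.37%. These libraries took part in choosing that list. The same list took 0.867% in 2-cell AB replicate 1, the next having 0.465%. Row 377 stood at 443.9 CPM in 2-cell P1 replicate 1, the next having 183.9 CPM.

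A signal also appeared in a library that entered no comparison. Row 560 stood at 430.3 CPM in the 3-cell EMS library left out for depth, 4 counts, above the highest AB value of 33.4 CPM.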

How the results depend on the processing

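The log2 fold change of row 560 ran from 3.56 to 4.50 over 34 alternatives, and it passed in all but 1, the omission of low-score libraries. That of row 377 ran from 3.78 to 4.66 over 32 and passed in all but 2, that omission and the one without EMS replicate 6. The filter removed row 377 with AB and EMS alone and with a minimum total of 50000, and both rows at 10000 counts per library. The count of 2 called rows became 5 with DESeq2, 25 without a filter, 8 at a mean of 50 CPM or more, 1 with AB and EMS libraries only, 4 and 1 with minimum totals of 5000 and 50000, and 0 without low-score libraries (298 at an unadjusted p under 0.05; DESeq2 was not run there), or 5 on the same 3097 rows. Leaving out 1 library gave 1 to 9: 1 without EMS replicate 6, 9 and 6 without EMS replicates 7 and 8, 4 and 8 without AB replicates 4 and 2. On the 3097 rows each omission gave 2 or 3 calls, and why the count moved when the filter was redone was not tested. With the replicate number as a block, rows 560 and 377 were the 2 calls (log2 fold changes 4.18 and 3.99, edgeR adjusted p = 0.0262 and 0.0385). Of the EMS libraries, that of number 1 alone correlated best with its own number in AB.

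At 4 to 6 cells the count of 87 became 196 without a filter (69 of them lower in EMS), 24 with stage as a covariate, and 0 to 179 without 1 library (its lowest and highest). Row 11447 there ran from -0.53 to 0.78 over 11 alternatives and turned positive without 5-cell AB replicate 2 (0.779) or 5-cell EMS replicate 1 (0.0785). Row 377 missed the threshold in 4 of 11, and row 560 in none. Row 16190 passed in 1 of 11, without 4-cell AB replicate 3 (-2.78, edgeR adjusted p = 0.029).

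Without 1 library, EMS minus P2 for row 16190 ran from -0.0751 to 1.67, turning negative without EMS replicate 1 (-0.0618 with the filter redone). The total count difference ran from -0.768 to 0.175 (log2), the rows detected from -855 to 1691, and the share of the 100 most abundant rows from -6.56 to 0.41 percentage points. With a minimum total of 5000 the total count difference was -1.05 (log2), and these last 2 were -1762 rows and 1.77 points. None of these passed. The cause was not tested. Depth limits row 377 in particular, with 4 counts in 2 of its EMS libraries.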
